A study of Rattus norvegicus with 16 samples.

Results

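The comparison of RGD with no RGD at 48 h took in 8 of the 16 libraries of the series, chosen by their labels as all libraries taken at 48 h: 4 from gels that carried RGD and 4 from gels that did not. Each set of 4 held 2 libraries from soft gels (100 Pa) and 2 from stiff gels (1.2 kPa), so that stiffness was balanced between the sets and entered the test as a covariate. The cells were rat neural stem cells, described in the labels as hippocampal neural progenitors from adult animals, which were embedded in gels of hyaluronic acid. All 4 groups shared the same medium for mixed differentiation, DMEM-F12 with N2 supplement, 1 μM retinoic acid and 1% FBS, so that no group was kept as undifferentiated stem cells. The labels give neither the strain nor the age of the animals, and nothing in them says that replicates were separate cultures. The p-values therefore measure the spread between these libraries, which may be technical.

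RGD is the sequence arginine, glycine and aspartate, the motif in fibronectin and other matrix proteins to which several integrins bind. Integrins are paired surface receptors that link the matrix to the actin skeleton at focal adhesions, where kinases such as FAK and Src are activated and signal on to MAP kinases and the transcription factors SRF and YAP. Hyaluronic acid itself carries no integrin site and is bound by receptors such as CD44, so that adding RGD gives cells in such a gel a defined adhesive ligand. Whether genes of these pathways, or markers of stem cells, neurons, astrocytes and oligodendrocytes, differed could not be read from the table, because its rows are Ensembl transcript identifiers without gene names. A table of 47357 rat genes from RefSeq (assembly GRCr8) matched 0 of them, so that 28 lists of pathway and marker genes were not tested and the labelled cell type was not checked against its markers. Transcripts are described below as groups, and in each comparison at most 2 with higher and 2 with lower levels are named by identifier.

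The 8 libraries held 2035890 to 2926954 counts, of which a pair of transcripts took 47.1% to 51.3%, leaving 990697 to 1505315 counts for all others. Libraries with RGD held 2035890 to 2737608 counts and those without 2482576 to 2926954 (exact permutation test, two-sided, p = 0.143, adjusted p = 0.286 over 4 library measures, n = 4 each). The number of transcripts with at least 1 count was 10363 to 10822 with RGD and 10566 to 10905 without. Of 41078 transcripts in the table, 14222 had a count in these libraries and 7391 had enough counts to be tested.

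Libraries of the same group differed about as much as libraries with and without RGD. Over the 2498 transcripts that averaged at least 100 counts, the SD of the log2 difference between replicates was 0.48 in soft gels without RGD, 0.37 in soft gels with RGD, 0.33 in stiff gels without RGD and 0.44 in stiff gels with RGD. The SD of the log2 difference between the mean of the libraries with RGD and the mean of those without was 0.33 in soft and 0.28 in stiff gels, where the replicate differences alone would give 0.30 and 0.27. The first principal component of log2 CPM (counts scaled to a common library size) held 28.1% of the variance. Libraries with RGD stood at -11.0 and 21.6 (soft) and 13.9 and 25.6 (stiff) on it, and those without at -11.2 and -29.8 (soft) and -8.87 and -0.21 (stiff). Replicate 1 of the soft gels with RGD was thus the only library with RGD inside the range of those without. In none of the 8 libraries was its own replicate the nearest library, and for 4 of the 8 the nearest library shared its RGD state.

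**Figure D1:**
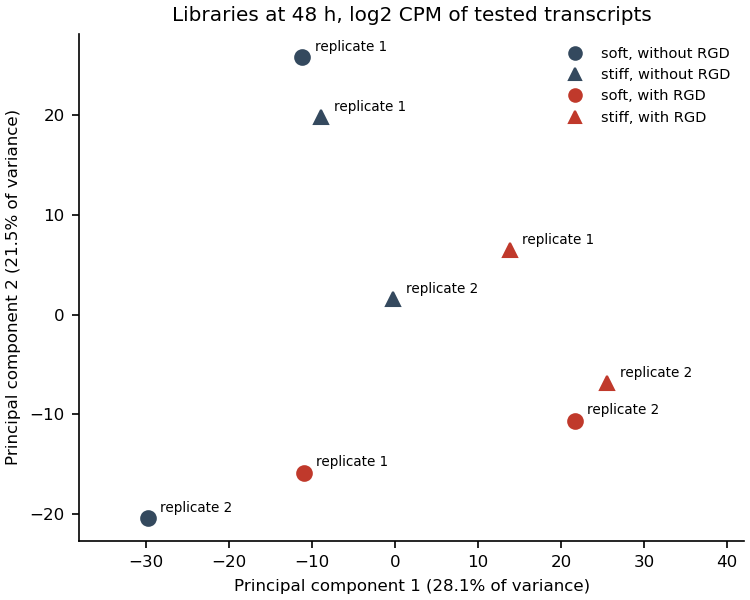
Positions of the 8 libraries at 48 h on the first 2 principal components of log2 CPM, with the share of variance on each axis, symbols for stiffness and colours for RGD. Replicate 1 of the soft gels with RGD lies at -11.0 on the first component, among the libraries without RGD, and the replicate 1 libraries of both gels without RGD lie together at the top.

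A pair of libraries stood apart from the rest in their most abundant transcripts. The 40 transcripts with a mean over 1000 CPM, other than the pair that dominated every library, summed to 164192 CPM in replicate 1 of the soft gels without RGD and to 159463 CPM in replicate 1 of the stiff gels without RGD. The other 6 libraries lay between 95393 and 128100 CPM. These 2 libraries had the lowest scaling factors, 0.94 and 0.90, and were each other's nearest library. The replicate 2 libraries of the soft and the stiff gels with RGD were also each other's nearest library, and were not left out together. The summed level was 132168 ± 34353 CPM without RGD and 108637 ± 15431 CPM with RGD (SD, n = 4 each), a difference that did not pass (exact permutation test, two-sided, p = 0.286, where the smallest possible is 0.0286). Both libraries with the high sums are in the group without RGD. Counts of calls that use these 2 libraries, and the values of the called transcripts, were therefore also computed without them. This alternative was chosen after seeing the data.

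With RGD at 48 h, 3 of the 7391 tested transcripts changed, 0.0406% of those tested, of which 2 were higher (0.0271%) and 1 was lower (0.0135%). ENSRNOT00000020505.3 and ENSRNOT00000051008.3 were about 2-fold higher in gels with RGD, and ENSRNOT00000011945.4 was 2.55-fold lower. Counts were tested by edgeR's quasi-likelihood method with stiffness as covariate, and a transcript was called at a Benjamini-Hochberg adjusted p under 0.05. Because the libraries are bulk samples, fewer cells of a type and less RNA per cell cannot be told apart in any of these values.

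ENSRNOT00000020505.3 had the smallest p of all transcripts tested. Without RGD it stood at 36.0 and 54.4 CPM in soft gels and 40.5 and 50.1 CPM in stiff gels. With RGD it stood at 87.1 and 103 CPM in soft gels and 127 and 98.8 CPM in stiff gels. All 4 libraries with RGD lay above all 4 without, and thus also within each stiffness. The mean rose from 45.2 ± 8.49 to 104 ± 16.8 CPM (SD, n = 4 each). This was a 2.28-fold change with an edgeR adjusted p of 0.00764, and on the log2 scale it was 1.19 ± 0.17 (SE).

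ENSRNOT00000051008.3 stood at 32.1 and 47.2 CPM in soft and 26.5 and 43.0 CPM in stiff gels without RGD. With RGD its levels were 92.6 and 96.4 CPM in soft and 69.4 and 58.7 CPM in stiff gels. The groups did not overlap, and with RGD both soft libraries were above both stiff ones. The mean rose from 37.2 ± 9.56 to 79.3 ± 18.2 CPM (SD, n = 4 each), with a log2 fold change of 1.06 ± 0.19 (SE, edgeR adjusted p = 0.0349).

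ENSRNOT00000011945.4 was the transcript that fell. Without RGD it stood at 30.5 and 27.7 CPM in soft and 25.6 and 41.7 CPM in stiff gels, and with RGD at 16.4 and 11.1 CPM in soft and 12.0 and 9.66 CPM in stiff gels. Every library with RGD was below every library without. The mean fell from 31.4 ± 7.17 to 12.3 ± 2.91 CPM (SD, n = 4 each), with a log2 fold change of -1.35 ± 0.24 (SE, edgeR adjusted p = 0.0349).

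The next transcript with lower levels, ENSRNOT00000021898.5, had the smallest p of those that did not pass in that direction. It stood at 33.2 and 33.2 CPM in soft and 36.4 and 30.5 CPM in stiff gels without RGD, and at 22.2 and 14.5 CPM in soft and 11.6 and 15.03 CPM in stiff gels with RGD. Its groups did not overlap, and its log2 fold change of -1.07 ± 0.21 (SE) had an adjusted p of 0.0824 (edgeR). The libraries without RGD were close to each other for this transcript, with an SD of 2.43 CPM around 33.3.

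**Figure D2:**
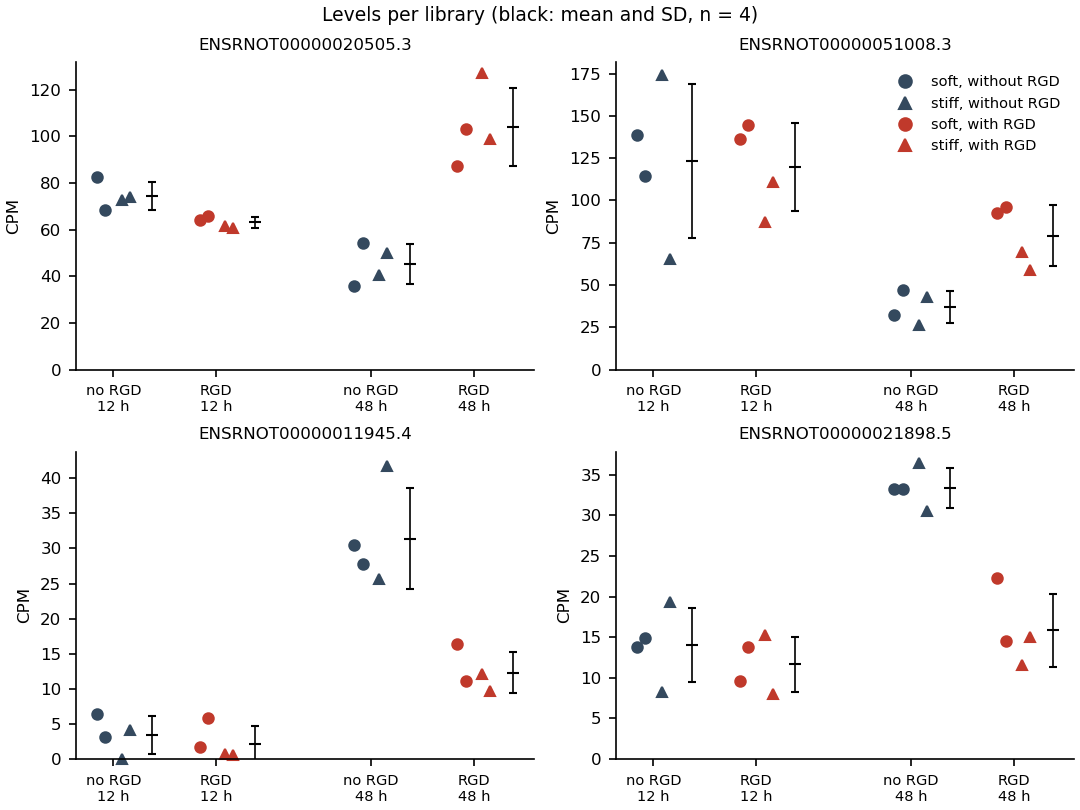
CPM of the 4 named transcripts in every library, scaled within each time, at 12 h and 48 h, without and with RGD, with the mean and SD of each set of 4 in black (circles, soft; triangles, stiff). At 48 h the sets do not overlap for any of the 4, and at 12 h ENSRNOT00000020505.3 lies between 60.8 and 65.9 CPM with RGD and between 68.3 and 82.4 CPM without.

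The number of calls changed when single libraries were left out. The fold changes of the 3 transcripts kept their direction, which follows from sets that do not overlap. By edgeR, no transcript was called without replicate 2 of the soft gels with RGD (531 at an unadjusted p under 0.05) or without replicate 1 of the stiff gels without RGD (600). In the order above, the log2 fold changes of the 3 transcripts were 1.16, 1.01 and -1.30 without the former library (edgeR adjusted p = 0.105, 0.35 and 0.35). Without the latter they were 1.11, 0.98 and -1.44 (0.0798, 0.344 and 0.0798). There were 7 calls without replicate 1 of the soft gels with RGD, 6 without replicate 2 of the stiff gels without RGD and 10 without replicate 1 of the stiff gels with RGD. The other 3 libraries gave 2 to 4 calls when left out. Without both libraries that stood apart, 1 transcript was called and it was none of the 3. The log2 fold changes were then 0.985 for ENSRNOT00000020505.3 (edgeR adjusted p = 0.24), 0.786 for ENSRNOT00000051008.3 (0.426) and -1.49 for ENSRNOT00000011945.4 (0.131).

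ENSRNOT00000020505.3 passed in all 12 settings other than that one, among them DESeq2 (adjusted p = 4.2e-06) and limma-voom (0.0181), and with 6 of the 8 libraries left out singly. ENSRNOT00000051008.3 passed in 5 of the 12 settings and with 4 of the 8 libraries left out, and missed with limma-voom (adjusted p = 0.0788). ENSRNOT00000011945.4 passed in 5 of the 12 settings and with 3 of the 8 libraries left out, missed with limma-voom (adjusted p = 0.0849) and had no adjusted p from DESeq2.

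**Figure D3:**
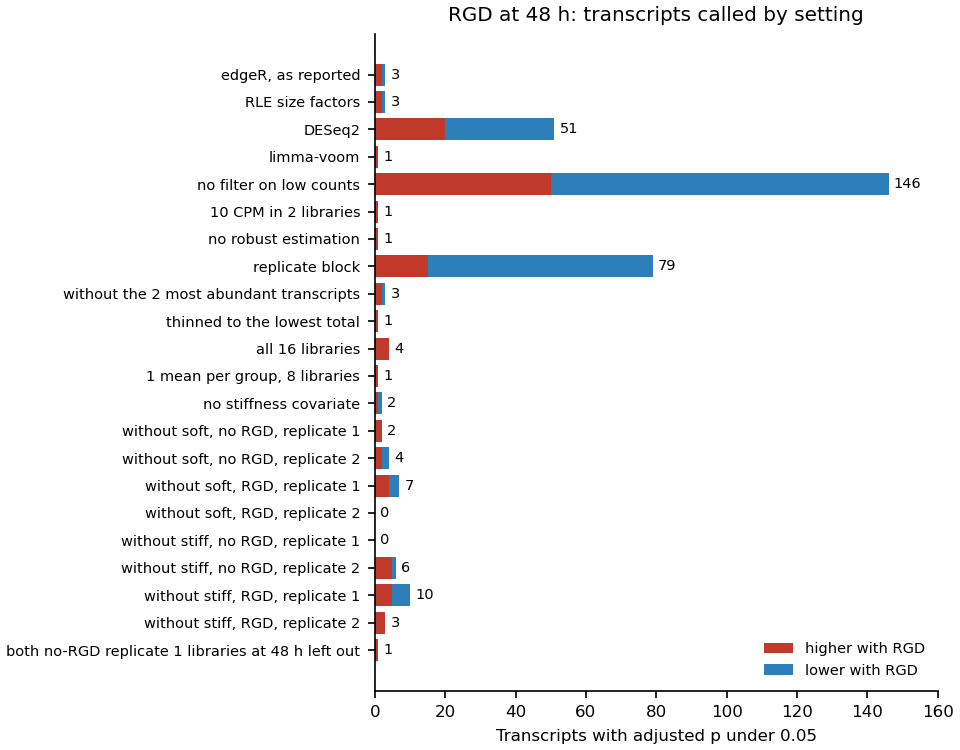
Number of transcripts with an adjusted p under 0.05 for RGD at 48 h (bars, split into higher and lower with RGD) in the test as reported, under each alternative setting and with each library left out. The count is 3 as reported, 146 with no filter on low counts, 79 with the replicate number as a block, 51 with DESeq2, and 0 to 10 when a library is left out.

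Below the adjusted threshold, 959 of the 7391 transcripts (13%) had an unadjusted p under 0.05 by edgeR, where uniform p-values would give 370. Of these, 428 had higher and 531 lower levels with RGD. Their number was 605 without both libraries that stood apart, a fit that also had fewer libraries. Leaving out a single library gave from 531 (replicate 2 of the soft gels with RGD) to 1092 (replicate 1 of the same group). Among all tested transcripts the median log2 fold change was 0.01, and the median size of the change, regardless of direction, was 0.23.

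For 458 transcripts (6.2%) the 4 libraries with RGD did not overlap the 4 without. Levels with RGD were above for 205 (2.77%) and below for 253 (3.42%). The log2 fold changes of the 205 ranged from 0.14 to 2.61 with a median of 0.50, and those of the 253 from -1.68 to -0.13 with a median of -0.53. These sizes are a description, since transcripts were taken here for their separation. More than a 2-fold change was reached by 38 of the 458, 22 with higher and 16 with lower levels. At 12 h, 156 of 7345 tested transcripts (2.12%) had no overlap between the sets. Of the 70 ways to split the libraries of a time into sets of 4, a share of 0.0286 separates a given transcript fully, in either direction. With a library left out, sets separate more easily, so such counts do not compare with the 458 or with that share. Leaving out single libraries gave 593 to 1159 of the 7391 transcripts without overlap. The highest count was that without replicate 1 of the soft gels with RGD.

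Transcripts present in every library of one set and at 0 in the other set were all of very low count. Of the transcripts with 0 counts in all 4 libraries without RGD, 12 had a count in every library with RGD, and the highest total over those 4 libraries was 11 counts. In the opposite direction there were 11 such transcripts, also with at most 11 counts in total. All of them were too low to be tested.

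**Figure D4:**
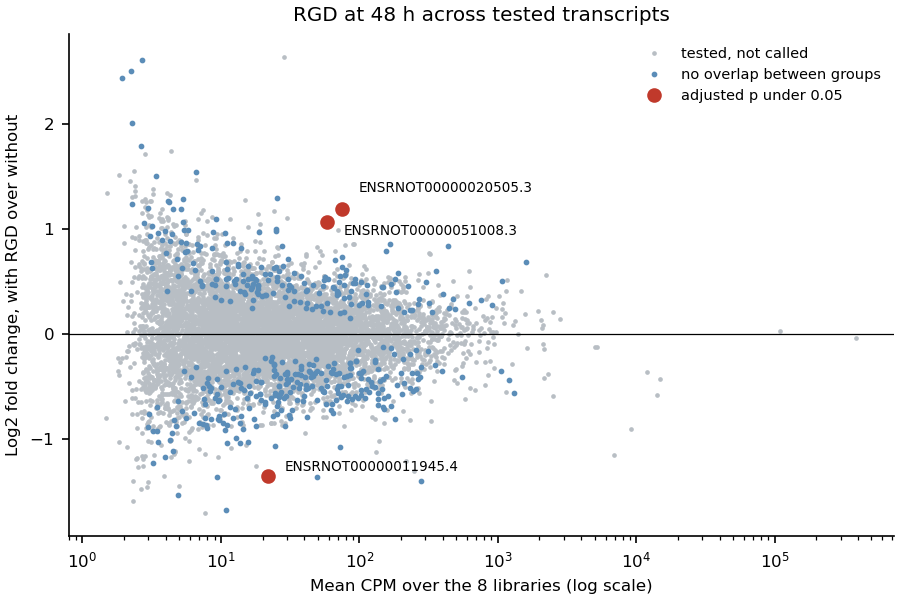
Log2 fold change with RGD over without at 48 h against mean CPM (log axis) for the 7391 tested transcripts, with the 458 that have no overlap between the sets in blue and the 3 called in red. The 3 called lie between 10 and 100 CPM, with log2 fold changes of 1.19, 1.06 and -1.35.

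The share of transcripts with a small p was larger in the more abundant tiers. An unadjusted p under 0.05 was found for 7.42% of the 2225 transcripts under 10 CPM, 14.1% of the 4184 between 10 and 100 CPM, 20.4% of the 940 between 100 and 1000 CPM and 12 of the 42 over 1000 CPM. The 3 calls were all between 10 and 100 CPM. Under 10 CPM, 99 of the transcripts with such a p had higher and 66 lower levels with RGD, whereas between 100 and 1000 CPM 72 had higher and 120 lower levels. The precision differed too. The median SE of the log2 fold change was 0.39 under 10 CPM, 0.15 between 100 and 1000 CPM and 0.19 over 1000 CPM.

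Changes of more than 2-fold were outside the 95% interval of the fold change for 5334 of the 7391 transcripts (72.2%), each interval taken alone. This held for 31.8% of transcripts under 10 CPM, 96.3% of those between 100 and 1000 CPM and 85.7% of those over 1000 CPM. Changes of more than 1.5-fold were outside it for 2179 transcripts (29.5%).

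Among the 40 transcripts over 1000 CPM described above, log2 fold changes ranged from -1.16 to 0.69 with a median of 0.07, and 21 were above and 19 below 0. A log2 fold change below -0.5 was found for 6 of them, and in 5 of the 6 the sets overlapped. The smallest adjusted p among the 40 was 0.146 (edgeR). The pair of transcripts that dominated every library had log2 fold changes of -0.04 ± 0.29 and 0.03 ± 0.25 (SE), with edgeR adjusted p-values of 0.965 and 0.978.

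Taken alone, neither stiffness gave a called transcript. In soft gels, 2 libraries against 2, 0 of 7391 (0%) passed by edgeR, limma-voom or DESeq2, and 459 (6.21%) had an unadjusted p under 0.05 by edgeR. In stiff gels 0 passed by the same 3 tools, and 308 (4.17%) had an unadjusted p under 0.05 by edgeR, fewer than the 370 that uniform p-values would give. ENSRNOT00000020505.3 had log2 fold changes of 1.07 ± 0.26 in soft and 1.31 ± 0.26 in stiff gels (SE). Those of ENSRNOT00000051008.3 were 1.25 ± 0.27 in soft and 0.86 ± 0.28 in stiff gels, and those of ENSRNOT00000011945.4 were -1.07 ± 0.34 and -1.65 ± 0.35 (SE).

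The RGD effects in soft and stiff gels were not shown to differ for any transcript. When that difference was tested, edgeR, limma-voom and DESeq2 each called 0, while 73 transcripts (0.988%) had an unadjusted p under 0.05 by edgeR. Uniform p-values would give 370, so small p-values were scarce in this test, and 0 calls do not show that the effects were equal. For the 3 called transcripts the effect in stiff minus that in soft gels was 0.24 ± 0.36, -0.39 ± 0.39 and -0.58 ± 0.48 on the log2 scale (SE), in the order above, so that differences of about 1 log2 unit lie within the error.

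In the 2498 transcripts that averaged at least 100 counts, the log2 fold changes with RGD in soft and in stiff gels had a Pearson correlation of 0.73 and the same sign for 76.7%. The libraries behind the soft and the stiff values are different ones, but some resembled each other across stiffness. The replicate 1 libraries without RGD from soft and stiff gels were each other's nearest library. So were the replicate 2 libraries with RGD. How far this resemblance raised the correlation was not tested, and transcripts do not stand for independent replicates. With all 7391 tested transcripts the correlation was 0.39. At 12 h the same correlation was 0.17 over 2278 transcripts. The 48 h value was between 0.45 and 0.75 when a library was left out, with the lowest value without replicate 2 of the stiff gels with RGD, and 0.49 without both libraries that stood apart.

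**Figure D5:**
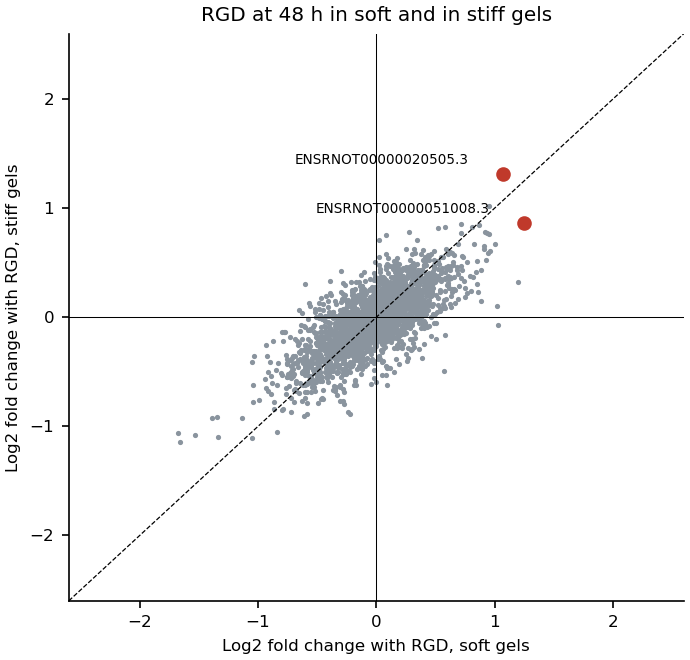
Log2 fold change with RGD at 48 h in stiff gels against that in soft gels for the 2498 transcripts that averaged at least 100 counts (dashed line, equal change). The points spread along the line with a correlation of 0.73. Both named transcripts that pass this count limit lie at its upper end, having been named for large changes of the same sign in both.

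At 12 h, the same test on the 8 libraries of that time called 2 of 7345 transcripts (0.0272%), and 395 (5.38%) had an unadjusted p under 0.05, where uniform p-values would give 367. The biological coefficient of variation was 0.123 at 12 h and 0.191 at 48 h. The 2 transcripts are outside the rule for naming at 48 h and are named because they are so few. ENSRNOT00000020475.4 had log2 fold changes with RGD of 1.14 ± 0.23 at 12 h and 1.01 ± 0.29 at 48 h (SE), the latter with an edgeR adjusted p of 0.181. ENSRNOT00000005361.3 had -0.51 ± 0.09 at 12 h and -0.42 ± 0.18 at 48 h (SE), the latter with an adjusted p of 0.324 (edgeR). For neither did edgeR's test show a difference between the times (adjusted p = 0.972 for each).

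The effect of RGD differed between 48 h and 12 h for 1 of 7876 transcripts tested over all 16 libraries (0.0127%), and 506 (6.42%) had an unadjusted p under 0.05. That transcript was ENSRNOT00000020505.3. At 12 h, scaled among the libraries of that time, it stood at 82.4 and 68.3 CPM in soft and 72.6 and 73.9 CPM in stiff gels without RGD, and at 64.2 and 65.9 CPM in soft and 61.5 and 60.8 CPM in stiff gels with RGD. All 4 libraries with RGD were then below all 4 without, with a log2 fold change of -0.24 ± 0.13 (SE, edgeR adjusted p = 0.935). Without the 2 libraries that stood apart at 48 h, no transcript was called for a difference between the times by edgeR (514 at an unadjusted p under 0.05). The difference of ENSRNOT00000020505.3 was then 1.21 on the log2 scale (edgeR adjusted p = 0.0746), against 1.42 with all 16 libraries.

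The other 2 called transcripts had wide errors at 12 h. ENSRNOT00000051008.3 stood at 120 ± 25.8 CPM with RGD and 123 ± 45.6 CPM without at 12 h (SD, n = 4 each), with overlapping sets, and its RGD effect at 48 h minus that at 12 h was 1.11 ± 0.34 (SE, edgeR adjusted p = 0.746). ENSRNOT00000011945.4 had 0 to 14 counts per library at 12 h, and its RGD effect differed between the times by -0.34 ± 0.84 (SE, edgeR adjusted p = 0.969).

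Of the 205 transcripts separated upward by RGD at 48 h, 196 were tested at 12 h, and 84 of these had the opposite sign there. Of the 253 separated downward, 242 were tested at 12 h and 76 had the opposite sign. Over all 6994 transcripts tested at both times, 57% had the same sign. The median log2 fold changes at 12 h of those separated upward and downward were 0.03 and -0.07. Over all transcripts tested at 12 h the median was 0.00. For the 2498 transcripts that averaged at least 100 counts at 48 h, the RGD fold changes at 48 h and at 12 h share no library. Their Pearson correlation across transcripts was 0.25, and 60% had the same sign.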

How the data were processed

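Per the labels' protocols, total RNA was made into 3′ tag libraries, in which reads come from near the 3′ end of a transcript. The authors deposited whole-number counts per Ensembl transcript, without normalization. The submitters' processing notes name FastQC, HISAT2 2.1.0, HTSeq and the build rn6. Not given in the sources used here are the annotation release, how strand and isoforms were handled, and whether molecular identifiers were used. Isoforms and overlapping genes may therefore share reads. The sampling noise named below covers counting only, whereas the SEs come from the spread between libraries.

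The 8 libraries at 48 h were fitted alone with edgeR 4.0.16 (limma 3.58.1, R 4.3.3), TMM scaling (factors 0.8985 to 1.0687), robust quasi-likelihood estimation, stiffness as covariate and Benjamini-Hochberg adjustment. Transcripts were kept by edgeR's filter by group (minimum count 10, minimum total 15), which retained 99.6% to 99.7% of counts. Contrasts within a stiffness and their difference came from a fit with 1 mean per group, and the difference between times from all 16 libraries. SE is the log2 fold change over the square root of F, an approximation. Log2 CPM used a prior count of 2. Replicates differed by more than sampling noise in all 4 groups (6.08 to 14.9 in chi-square per degree of freedom). The 2 transcripts named per direction had the largest called change, a mean of 20 or more counts and the same sign in both stiffnesses, with places left over filled by the smallest p. The comparison, the lists and the rule were chosen with earlier results of these data known. The fit was tested on simulated data. Alternatives were RLE factors, DESeq2 1.42.0, limma-voom, other filters, no robust estimation, a replicate block, other models, thinning and leaving out libraries.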

Additional observations from a re-analysis of the deposited data

Results flagged for a closer look

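ENSRNOT00000020505.3 responded differently to RGD at 48 h and at 12 h, which was tested as an interaction over all 16 libraries. On the log2 scale the RGD effect was larger at 48 h by 1.42 ± 0.22 (SE), with an adjusted p of 0.00516 by edgeR. The libraries with RGD were the 4 highest at 48 h and the 4 lowest at 12 h. The call was lost (adjusted p = 0.0658, edgeR) when replicate 1 of the soft gels without RGD at 12 h was left out. Without both replicate 1 libraries without RGD at 48 h the difference was 1.21 (adjusted p = 0.0746, edgeR), an alternative chosen after seeing the data. This transcript was taken up with that result known. Among 24 sets of 4 values checked for a single library far from the other 3, namely the 4 named transcripts at both times and 4 library measures, 0 had one. Such a check cannot flag a pair of libraries that stand apart together.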

How the results depend on the processing

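For RGD at 48 h, edgeR called 3 transcripts, and RLE factors, a fit without the 2 most abundant transcripts and no stiffness covariate gave 2 or 3, all among these 3. All 16 libraries gave 4, all higher, 1 of them among the 3. DESeq2 called 51 (20 higher, 31 lower; 2 of the 3 among them, the third being among 5302 of the 7391 transcripts to which DESeq2 gave no adjusted p), no filter on low counts 146 (50 higher, 96 lower; all 3) and the replicate number as a block 79 (15 higher, 64 lower; all 3). Limma-voom, 10 CPM in 2 libraries, no robust estimation, thinning, 1 mean per group and leaving out both replicate 1 libraries without RGD gave 1 each, and leaving out single libraries 0 to 10. The cause was not tested. The labels do not say what a replicate number marks. Deviations of same-numbered libraries correlated between -0.33 and 0.35 over 6 pairs of groups at 48 h, over 0.1 in 4 of the 6. Between soft and stiff gels the correlation was 0.28 without RGD and 0.35 with RGD. Between gels with and without RGD it was -0.33 in soft and -0.10 in stiff gels. Pairs that differed in both gave 0.13 and 0.16. Soft and stiff libraries of the same RGD state may thus not be independent, which was not tested. The numbers were not treated as pairing. In soft gels (0 calls) no filter gave 7, the replicate block 2, leaving out both replicate 1 libraries without RGD 1, and single libraries 0 to 2. In stiff gels (0) no filter gave 3, all 16 libraries 1. The difference between stiffnesses gave 0 in all settings. The difference between times (1 call) gave 7 with no filter, 0 without both replicate 1 libraries without RGD at 48 h and 0 to 2 without single libraries. At 12 h (2 calls) DESeq2 and thinning gave 1, no filter 4, all 16 libraries 0, and single libraries 0 to 16. The 458 transcripts without overlap became 1002 without both replicate 1 libraries without RGD, and 593 to 1159 without single libraries, in part because fewer libraries have to be separated. None of the 4 named transcripts changed direction in any setting. Since their sets did not overlap at 48 h, leaving out libraries could not have reversed it.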
